A study of Danio rerio with 18 samples.

Results

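The genes described here are the zebrafish Wnt ligands, their Frizzled receptors and 2 families of secreted Wnt antagonists, measured in sorted embryo cells. Members were every gene ID whose symbol, ignoring case, starts with wnt, fzd, sfrp or dkk followed by a digit. The rule found 48 of the 28298 gene IDs in the count table, of which 25 are Wnt ligands, 13 Frizzled receptors, 5 sFRP genes (secreted Frizzled-related proteins) and 5 Dkk genes (Dickkopf proteins). They carry 41 distinct symbols, because 7 symbols are each shared by 2 IDs. An upper-case symbol is that of a vertebrate relative and can stand for more than 1 zebrafish paralog, so the gene ID is given where a symbol occurs on 2 IDs.

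Wnt proteins are secreted, lipid-modified signals that bind Frizzled receptors on the cell surface. With the co-receptors LRP5 and LRP6 the signal stabilises beta-catenin, which enters the nucleus and acts with TCF and LEF factors. With other co-receptors it runs through the planar cell polarity branch, which organises cell movement and shape. sFRP proteins bind Wnts outside the cell, and Dkk proteins of the Dkk1 type block LRP5 and LRP6. In vertebrate embryos these genes are known for patterning the neural tube and for the movements of gastrulation, and Wnt signalling acts on heart-forming cells in a way that depends on stage.

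RNA was sequenced from dissociated zebrafish embryos after sorting on GFP fluorescence, in a study whose title is about cardiomyocytes. There were 6 conditions, namely wild type at 24, 48 and 72 hpf (hours after fertilization) and, at 72 hpf only, a gata5, a tbx5 and a hand2 genetic background. For every condition the cells that carried GFP gave 2 libraries and those without it gave 1, so that 12 libraries are GFP-positive and 6 are GFP-negative. For the backgrounds the labels name the gene and leave the allele out, and which reporter drove GFP is not given in the sources used here. Whether libraries of a group stem from separate pools of embryos is not stated either, so p-values reflect the spread among these libraries, which may be technical.

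Library totals ran from 12070094 to 32141901 counts in the GFP-positive fraction and from 5705157 to 18863332 in the GFP-negative fraction. Levels are CPM, the count of a gene scaled to a common library total, after TMM scaling over all libraries, not divided by gene length, so they were compared between samples and not between genes. In the hand2 background HAND2 was at 2.55 and 0 CPM in the GFP-positive libraries against 46.5 and 45.8 in wild type at 72 hpf, where 3 counts, the floor, are 0.148 CPM in the library at 0. GATA5 was at 16.6 and 13.7 CPM in the gata5 background against 21.8 and 37.3, and TBX5 at 15.6 and 5.16 CPM in the tbx5 background against 15.2 and 21.7. All 7 cardiomyocyte marker IDs tested were higher in GFP-positive cells, and the summed level of all 8 IDs of that list was 70.2 to 2701 CPM there against 9.92 to 38.2. The gata5 GFP-positive replicate 2 held the 70.2. Xanthophore (yellow pigment cell) markers summed to 8276 to 29098 CPM in the GFP-positive libraries at 48 and 72 hpf, to 354 and 149.7 CPM at 24 hpf, and to 83.1 to 283 CPM in GFP-negative cells. The 24 hpf GFP-positive libraries stood apart in other lists too, with summed erythrocyte markers at 8675 and 9002 CPM and endothelial markers at 3264 and 2114 CPM. The number of members called between fractions is also given without the 24 hpf libraries, while the fold changes of that comparison include them. The stage comparisons from 24 hpf rest on them.

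**Figure D1:**
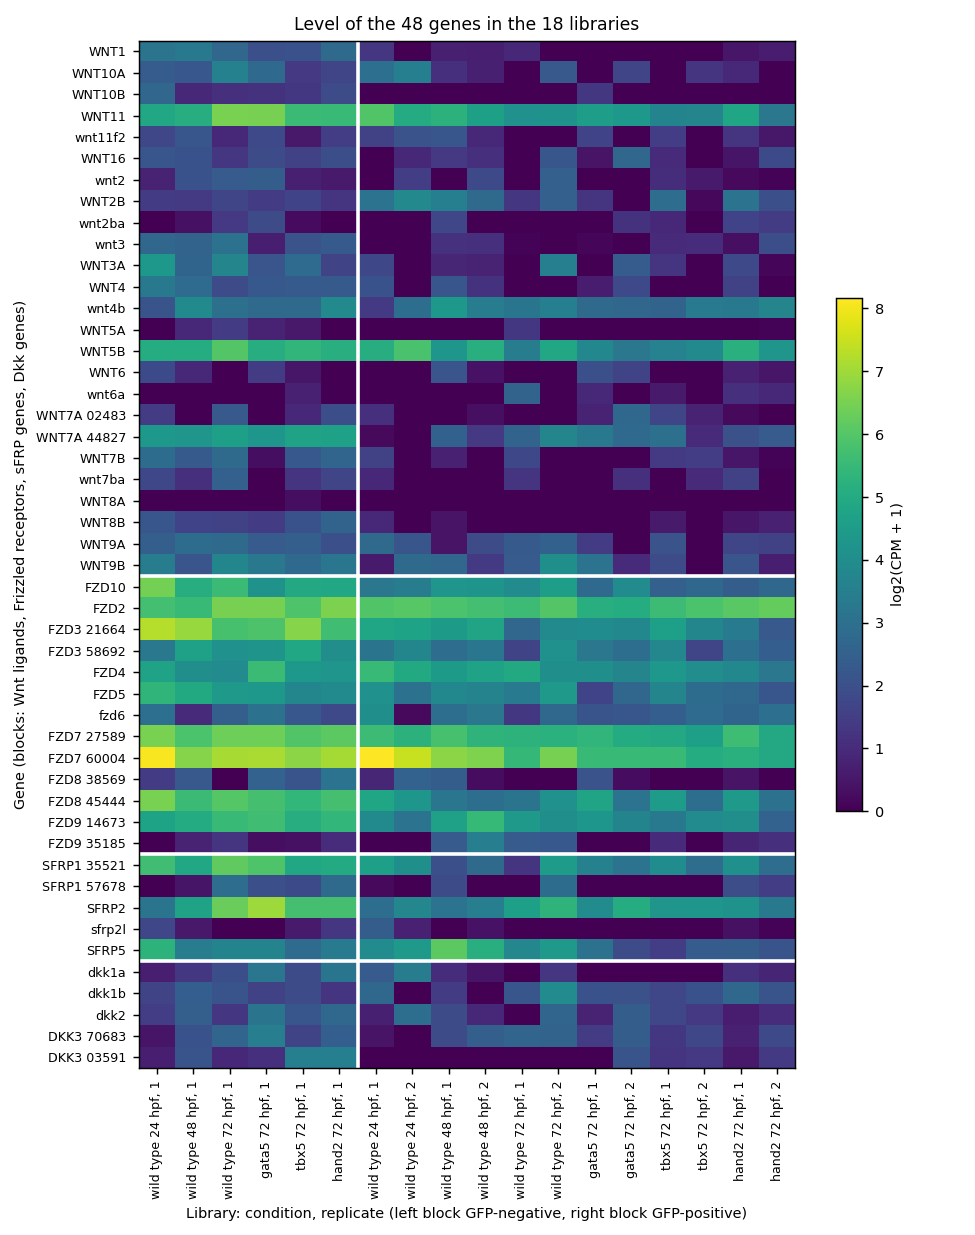
Level of each of the 48 genes (rows, grouped by role; 5 digits after a symbol are the end of its gene ID) in each of the 18 libraries (columns), as log2(CPM + 1), where brighter is higher. Many ligand rows are dark in the GFP-positive block on the right, where 6 to 14 of 25 ligands reached 1 CPM against 17 to 21 in the GFP-negative block on the left. The same count over all genes was not made.

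Most members were detected in the GFP-negative cells and fewer in the GFP-positive ones. Between 37 and 42 of the 48 members reached 1 CPM in the 6 GFP-negative libraries, against 24 to 34 in the 12 GFP-positive libraries, although the latter were in general sequenced more deeply. Of the 25 ligands 17 to 21 reached 1 CPM in GFP-negative and 6 to 14 in GFP-positive libraries, which do not overlap. How many of all genes reached 1 CPM was not counted, so these counts cannot be called particular to the Wnt genes. Of the 5 Dkk genes 2 to 5 did so in GFP-negative and 1 to 4 in GFP-positive libraries, and of the 13 receptors 11 to 13 in either fraction. WNT8A had 5 counts in total, all in the tbx5 GFP-negative library.

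The first comparison asks which of these genes differ between GFP-positive and GFP-negative cells, within condition and over all 18 libraries. Of 48 members, 44 passed the filter on low counts, and WNT5A, wnt6a, WNT8A and sfrp2l did not. In GFP-positive cells 18 of the 44 were lower and 0 were higher (edgeR quasi-likelihood test, Benjamini-Hochberg adjusted p under 0.05 over all 21729 genes). Among all genes tested 29.3% were called, 16.9% lower and 12.4% higher. The members' median log2 fold change was -1.40 against -0.26 for all genes, and 39 of 44 members had a value below 0. By role, 8 of 13 receptors, 7 of 22 ligands, 2 of 4 sFRP genes and 1 of 5 Dkk genes were lower. In 11 of the 44 tested members, 9 of them called, both GFP-positive libraries lay below the GFP-negative library in all 6 conditions, as they did in 9.25% of all genes tested. In 7 of the 44, all called, every GFP-positive library was below every GFP-negative one, against 1.98% of all genes tested. In bulk RNA, fewer cells of a type and less RNA per cell cannot be told apart.

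**Figure D2:**
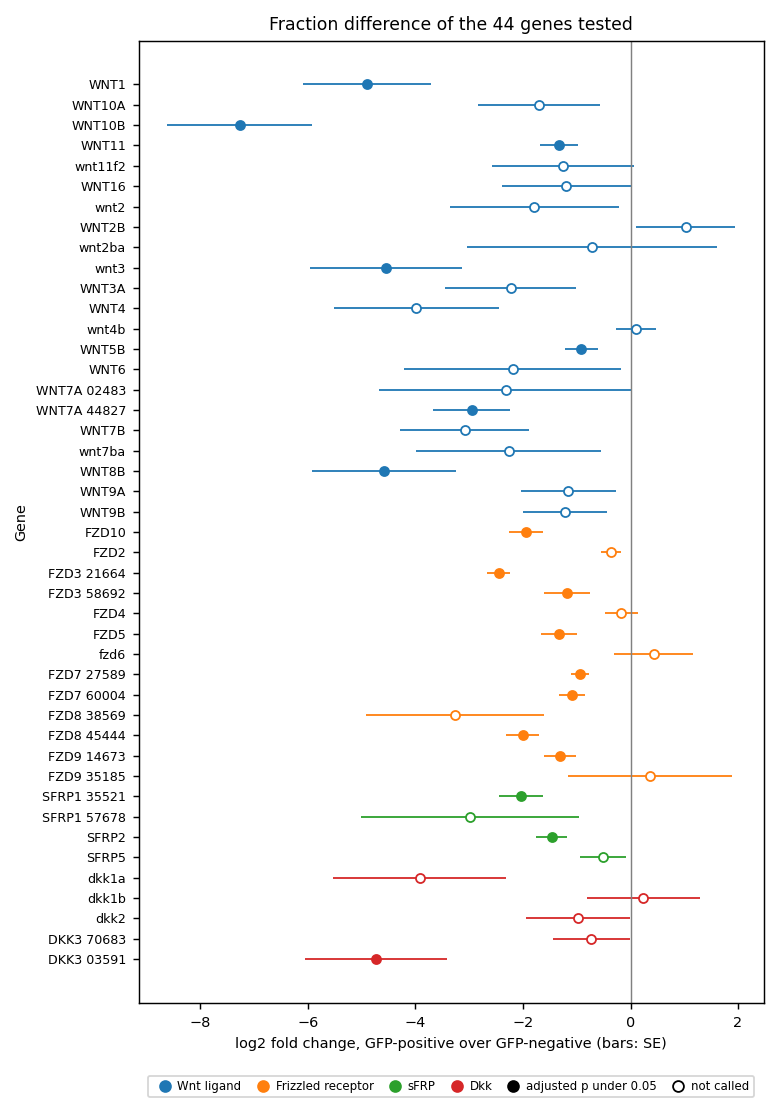
Log2 fold change of GFP-positive over GFP-negative cells for the 44 tested genes, with SE bars; filled points have an adjusted p under 0.05 and colours mark the role. All 18 filled points lie left of 0.

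Among the ligands, WNT11 (ENSDARG00000014796) is described first, and wnt11f2 is a separate member. Its lowest, median and highest levels were 8.48, 20.8 and 60.8 CPM in the 12 GFP-positive libraries and 28.2, 45.6 and 92.3 CPM in the 6 GFP-negative libraries. The ranges overlap because of 24 and 48 hpf, while in all 4 conditions at 72 hpf both GFP-positive libraries were below the GFP-negative one. WNT11 was lower by a log2 fold change of -1.33 ± 0.35 (SE; edgeR adjusted p = 0.0084). WNT5B, a ligand that in zebrafish is needed for convergent extension movements, had levels of 8.40, 18.3 and 56.1 CPM in GFP-positive and 32.05, 34.0 and 62.9 CPM in GFP-negative libraries. These ranges overlap, and its log2 fold change was -0.91 ± 0.31 (edgeR adjusted p = 0.0363). That call was lost in 11 of the 18 fits that left out a library, with the values staying below 0.

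WNT7A (ENSDARG00000044827), whose relative acts in brain and limb of the mouse, separated the fractions completely. Its levels were 0, 4.43 and 12.3 CPM (lowest, median, highest) in GFP-positive against 18.2, 21.5 and 25.2 CPM in GFP-negative libraries. The log2 fold change was -2.95 ± 0.71 (edgeR adjusted p = 0.00507). The GFP-negative levels spanned a narrow range over stage and genotype, whereas the GFP-positive levels did not.

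The other called ligands were WNT1, WNT8B, wnt3 and WNT10B, all scarce. WNT1, which acts at the midbrain-hindbrain boundary, was at 0 to 1.42 CPM in GFP-positive and 2.99 to 8.97 CPM in GFP-negative libraries, with no overlap and a log2 fold change of -4.91 ± 1.19 (edgeR adjusted p = 0.00518). WNT8B, a ligand of the developing brain, was at 0 to 0.926 CPM against 1.68 to 5.01 CPM, again with no overlap, and had a log2 fold change of -4.58 ± 1.33 (edgeR adjusted p = 0.0156). For wnt3 the levels were 0 to 2.86 CPM against 0.598 to 7.28 CPM, which overlap, and the log2 fold change was -4.54 ± 1.42 (edgeR adjusted p = 0.0231). The fitted wnt3 value exceeds the difference of its mean levels, 0.647 against 4.27 CPM. Over the alternative fits the values of WNT1, WNT8B and wnt3 ran from -5.97 to -1.40, -5.55 to -0.790 and -7.15 to -0.934. WNT10B was at 0 in 11 of 12 GFP-positive libraries and at 1.496 CPM in gata5 replicate 1, against 0.858 to 5.46 CPM in the GFP-negative libraries. Its fitted log2 fold change of -7.27 ± 1.35 (edgeR adjusted p = 0.000719) rests on 17 GFP-positive counts in all, from that 1 library. The fitted WNT10B value exceeds the difference of its mean levels, 0.125 against 2.16 CPM. Over the alternative fits it ran from -8.03 to -0.663. The WNT8B call was lost without the gata5 GFP-negative library, and the wnt3 call without the wild-type GFP-negative library of 24 or of 72 hpf. WNT3A and WNT7B, ligands that are likewise known from the neural tube, were not called, with log2 fold changes of -2.23 ± 1.22 and -3.08 ± 1.20 (edgeR adjusted p = 0.188 and 0.0636). Between the fractions neural markers had the same direction. Their summed level was 50.01 to 502 CPM in GFP-positive and 612 to 1477 CPM in GFP-negative libraries, and 6 of 7 were called lower. This was not particular to neural markers, since 3 of 4 erythrocyte markers were called lower and 0 higher. The part of either marker list in the result was not tested.

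Other ligands known from organ development did not pass the test. WNT2B, of a ligand family known in zebrafish for liver specification, had a value above 0, with 0, 5.35 and 13.3 CPM in GFP-positive and 1.36, 1.69 and 2.25 CPM in GFP-negative libraries and a log2 fold change of 1.03 ± 0.92 (edgeR adjusted p = 0.440). Both GFP-positive libraries were above the GFP-negative one in the 24 and 48 hpf wild type and in hand2. WNT4, known for kidney and gonad in the mouse, had 0 to 3.57 CPM against 2.65 to 8.86 CPM and a log2 fold change of -3.98 ± 1.54 (edgeR adjusted p = 0.0608). WNT9A and WNT9B had log2 fold changes of -1.15 ± 0.89 and -1.22 ± 0.78 (edgeR adjusted p = 0.363 and 0.267). For wnt2, wnt2ba and wnt11f2 the values were -1.79 ± 1.57, -0.71 ± 2.32 and -1.26 ± 1.32. WNT5A was not tested and was above 0 in 2 GFP-positive libraries, at 1.51 CPM in wild type 72 hpf replicate 1 and 0.0493 CPM in hand2 replicate 2.

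Frizzled receptors gave the most precise differences. FZD3 (ENSDARG00000021664), whose relative guides axons in the mouse, was at 3.85, 14.3 and 27.6 CPM in GFP-positive and 49.6, 80.4 and 152 CPM in GFP-negative libraries. No GFP-positive library came near the lowest GFP-negative one, and the log2 fold change was -2.45 ± 0.22 (edgeR adjusted p = 2.34e-06). FZD8 (ENSDARG00000045444), of a receptor known from the anterior neural plate, was at 6.69, 12.3 and 27.1 CPM against 41.3, 53.1 and 90.9 CPM, also without overlap, with a log2 fold change of -2.00 ± 0.30 (edgeR adjusted p = 0.000133). FZD10 was at 4.35, 9.17 and 23.1 CPM against 17.2, 31.1 and 87.8 CPM. Both GFP-positive libraries lay below the GFP-negative one in each of the 6 conditions, and its log2 fold change was -1.94 ± 0.32 (edgeR adjusted p = 0.000269).

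The FZD7 IDs, relatives of a receptor needed for gastrulation movements in frog and fish, were both lower but by less. FZD7 (ENSDARG00000027589) was at 23.6, 37.6 and 54.6 CPM in GFP-positive and 57.6, 75.6 and 92.1 CPM in GFP-negative libraries, without overlap, and had a log2 fold change of -0.94 ± 0.17 (edgeR adjusted p = 0.000579). FZD7 (ENSDARG00000060004) was at 29.8, 45.8 and 288 CPM against 102, 135 and 270.1 CPM, with a log2 fold change of -1.09 ± 0.23 (edgeR adjusted p = 0.00226). At 24 and 48 hpf 1 of the 2 GFP-positive libraries was above the GFP-negative one, and at 72 hpf both GFP-positive libraries were below in all 4 genotypes. Reads of paralogs can be split uncertainly, so these 2 values need not be independent.

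FZD5, known for eye formation, FZD9 (ENSDARG00000014673) and the other FZD3 (ENSDARG00000058692) were lower as well. FZD5 was at 2.11, 8.43 and 20.2 CPM in GFP-positive and 12.6, 19.7 and 40.1 CPM in GFP-negative libraries, with a log2 fold change of -1.33 ± 0.34 (edgeR adjusted p = 0.00699). FZD9 (ENSDARG00000014673) was at 4.93, 14.8 and 43.2 CPM against 25.9, 37.4 and 49.8 CPM, with a log2 fold change of -1.31 ± 0.29 (edgeR adjusted p = 0.00294). In both genes the ranges overlap. FZD3 (ENSDARG00000058692) had a log2 fold change of -1.18 ± 0.43 (edgeR adjusted p = 0.0453), and that call was lost in 13 of 18 fits without a library.

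FZD2 and FZD4 were not called. FZD2 was at 32.2, 56.7 and 74.1 CPM in GFP-positive and 44.4, 74.5 and 92.5 CPM in GFP-negative libraries, with a log2 fold change of -0.36 ± 0.19 (edgeR adjusted p = 0.171). FZD4, known for retinal vessel growth in mouse and human, was at 8.39, 17.8 and 45.0 CPM against 14.4, 18.9 and 46.2 CPM, with a log2 fold change of -0.17 ± 0.30 (edgeR adjusted p = 0.720). Missing the threshold does not show that these levels are equal. The remaining 3 receptors, fzd6, FZD8 (ENSDARG00000038569) and FZD9 (ENSDARG00000035185), had log2 fold changes of 0.43 ± 0.74, -3.26 ± 1.66 and 0.37 ± 1.52 and were not called.

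Secreted antagonists followed the same direction where they were called. SFRP1 (ENSDARG00000035521) was at 1.33, 9.30 and 23.4 CPM in GFP-positive and 28.1, 40.0 and 71.5 CPM in GFP-negative libraries, without overlap, with a log2 fold change of -2.03 ± 0.41 (edgeR adjusted p = 0.00134). SFRP2 was at 6.70, 15.9 and 38.5 CPM against 7.77, 53.2 and 126 CPM, with a log2 fold change of -1.47 ± 0.29 (edgeR adjusted p = 0.00115). Only the 24 hpf GFP-negative library, the lowest at 7.77 CPM, was not above both GFP-positive libraries of its condition. SFRP5, whose relative marks the inflow region of the mouse heart, was not called, with 1.81, 10.04 and 68.1 CPM against 6.26, 10.9 and 38.1 CPM and a log2 fold change of -0.51 ± 0.42 (edgeR adjusted p = 0.404). Epicardial and fibroblast markers summed to 454 to 3744 CPM in GFP-positive and 1944 to 11395 CPM in GFP-negative libraries. The 4 of 7 called lower were the collagens col1a1a and COL1A2 and both POSTN IDs, which make up most of the sum. The epicardial factors TCF21, TBX18 and WT1 were not called, with medians of 5.63, 9.68 and 7.77 CPM in GFP-positive and 1.62, 6.95 and 5.93 CPM in GFP-negative libraries. The part of these markers in the sFRP values was not tested.

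Among the Dkk genes, DKK3 (ENSDARG00000103591) was lower, at 0 in 7 of 12 GFP-positive libraries and at most 3.40 CPM in the others, against 0.607, 2.27 and 10.7 CPM in GFP-negative libraries. Its fitted log2 fold change was -4.73 ± 1.33 (edgeR adjusted p = 0.0128), and the call was lost without the wild-type 48 hpf GFP-negative library and with the 72 hpf libraries alone. That size exceeds the difference of the mean levels, 0.698 CPM in GFP-positive and 4.52 CPM in GFP-negative libraries. Over the alternative fits it ranged from -7.41 to -0.906. DKK3 (ENSDARG00000070683) was at 0 to 5.36 CPM against 0.364 to 10.2 CPM, with a log2 fold change of -0.73 ± 0.71 (edgeR adjusted p = 0.485). For dkk1b, an antagonist that promotes head formation in fish and frog, the levels were 0, 3.18 and 14.3 CPM against 1.36, 2.40 and 4.48 CPM and the log2 fold change was 0.24 ± 1.05 (edgeR adjusted p = 0.891). For dkk2 it was -0.98 ± 0.97 (edgeR adjusted p = 0.493).

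**Figure D3:**
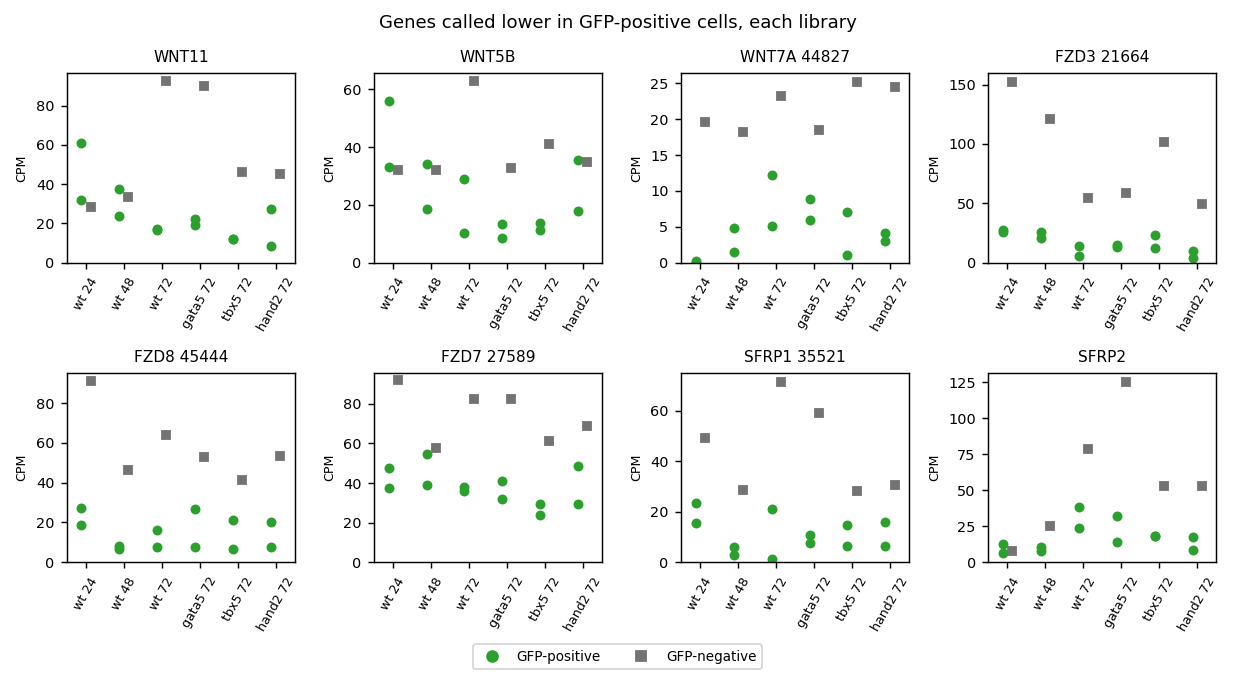
CPM (axes start at 0) of 8 genes called lower in GFP-positive cells, by condition (wt, wild type; numbers are hpf), with green circles for the 2 GFP-positive libraries and a grey square for the GFP-negative library. The circles of FZD3 ENSDARG00000021664 stay at or below 27.6 CPM while its squares lie at 49.6 CPM or more; for WNT11 and WNT5B some circles lie above the squares at 24 and 48 hpf.

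How many libraries and conditions carried these calls varied. With the 3 libraries at 24 hpf left out, 18 members were called, 17 of them the same genes, and wnt3 was no longer called. Without gata5 GFP-positive replicate 2, 16 were called. Shares of all genes are not given here for these 2 fits. In the 9 wild-type libraries alone 3 members were called, FZD10, FZD3 (ENSDARG00000021664) and FZD8 (ENSDARG00000045444), or 6.67% against 3.17% of all genes. With 72 hpf alone 16 were, or 34.8% against 26.1% of all genes.

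Over the 4 lists of other Wnt pathway genes together, 41 of 76 tested genes were lower and 1 was higher in GFP-positive cells, or 53.9% and 1.32%, against 16.9% and 12.4% of all genes. Of 21 tested genes of Wnt reception and release, 12 were lower and 0 higher in GFP-positive cells, with a median log2 fold change of -1.21 against -0.26 over all genes. The largest were lgr6 at -3.14 ± 0.91, PORCN (ENSDARG00000052558), which lipid-modifies Wnts for secretion, at -2.998 ± 0.97 and RSPO2, an R-spondin that enhances the signal, at -2.27 ± 0.66 (edgeR adjusted p = 0.0153, 0.0275 and 0.0151). Within the cell, 19 of 30 genes of the beta-catenin pathway were lower and 0 higher, with a median of -0.71. They included both brakes and effectors. APC2, of the complex that destroys beta-catenin, was at -2.79 ± 0.30, the adaptor DVL1 (ENSDARG00000055552) at -2.81 ± 0.55 and the transcription factor TCF7L2 at -2.16 ± 0.14 (edgeR adjusted p = 9.13e-06, 0.00115 and 1.59e-07).

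Genes that Wnt signalling is known to switch on were called lower more often than higher. Of 11 tested, 5 were lower and 1 was higher, with a median log2 fold change of -1.03 against -0.26 over all genes. Among all genes tested 16.9% were lower and 12.4% higher. TNFRSF19, NKD1 and LEF1 were lower, by -1.58 ± 0.52, -1.41 ± 0.24 and -1.03 ± 0.18 on the log2 scale (edgeR adjusted p = 0.0283, 0.000388 and 0.000527). FOSL1, a subunit of the AP-1 transcription factor, was higher at 1.92 ± 0.46 (edgeR adjusted p = 0.00551). In the planar cell polarity list 6 of 17 were lower and 0 higher, with a median of -0.63. The largest were CELSR3 and celsr1b, cadherins of that branch, at -3.22 ± 0.28 and -2.22 ± 0.25, and the core component VANGL1 at -1.94 ± 0.63 (edgeR adjusted p = 2.07e-06, 9.25e-06 and 0.0276).

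The next comparison follows GFP-positive wild-type cells from 24 to 72 hpf. FZD7 (ENSDARG00000060004) fell over this time and WNT7A (ENSDARG00000044827) rose, and the other members were not called. From 24 to 48 hpf 1 of 45 tested members was called, where 13.4% of all 23767 genes were, 9.06% higher and 4.29% lower. From 24 to 72 hpf 2 of 45 were called, where 15.7% of all genes were, 10.1% higher and 5.60% lower. From 48 to 72 hpf 0 of 45 were called by edgeR, with 5 at an unadjusted p under 0.05 (11.4% of all genes were) and 1 by DESeq2 (4.87% of all genes were), and 0.488% of all genes were called, 0.261% higher and 0.227% lower. WNT10B, WNT5A and WNT8A did not pass the filter here.

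FZD7 (ENSDARG00000060004) was at 288 and 180 CPM at 24 hpf, 108 and 94.9 CPM at 48 hpf and 42.3 and 88.8 CPM at 72 hpf in the GFP-positive libraries. The 24 hpf libraries were above all later ones. The log2 fold change was -1.25 ± 0.37 from 24 to 48 hpf and -1.86 ± 0.37 from 24 to 72 hpf (edgeR adjusted p = 0.0354 and 0.00336). GFP-negative cells were also highest at 24 hpf, at 270.1 CPM, against 102 CPM at 48 hpf and 137 CPM at 72 hpf. The difference between fractions did not itself change detectably from 24 to 72 hpf, at -0.78 ± 0.61 on the log2 scale (edgeR adjusted p = 0.865). The other FZD7 (ENSDARG00000027589) was at 47.7 and 37.3 CPM, 54.6 and 39.2 CPM, and 37.8 and 36.0 CPM at the 3 stages, and its log2 fold change from 24 to 72 hpf was -0.23 ± 0.37 (edgeR adjusted p = 0.757).

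WNT7A (ENSDARG00000044827) was almost undetected at 24 hpf in GFP-positive cells, at 0.142 and 0 CPM or 2 counts in all. It was at 4.76 and 1.54 CPM at 48 hpf and at 5.13 and 12.3 CPM at 72 hpf. The log2 fold change from 24 to 72 hpf was 6.88 ± 1.91 (edgeR adjusted p = 0.0234), and since it rests on 2 counts the ratio of pooled counts is given too, 155-fold with an exact 95% interval of 42.8 to 1287 for counting error only. GFP-negative cells held 19.7, 18.2 and 23.3 CPM at the same stages. The fraction difference had a value of 6.75 ± 2.08 between 24 and 72 hpf on the log2 scale (edgeR adjusted p = 0.143). Neural markers summed to 86.0 and 50.01 CPM at 24 hpf and to 426 and 502 CPM at 72 hpf in the same GFP-positive libraries, and their part in the rise was not tested.

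Members that were not called still differed in size. SFRP5 was at 14.3 and 20.1 CPM at 24 hpf, 68.1 and 34.6 CPM at 48 hpf and 12.7 and 20.1 CPM at 72 hpf in GFP-positive cells, while the GFP-negative libraries held 38.1, 10.02 and 11.9 CPM. Both 48 hpf libraries lay above those of the other stages, with log2 fold changes of 1.54 ± 0.65 from 24 to 48 hpf and -1.63 ± 0.65 from 48 to 72 hpf (edgeR adjusted p = 0.149 and 0.346). The epicardial factor TBX18 was also highest in the 48 hpf GFP-positive libraries, at 55.2 and 118 CPM against 1.92 and 4.86 CPM at 24 hpf and 29.8 and 29.2 CPM at 72 hpf. WT1, another such factor, was at 27.4 and 49.1 CPM at 48 hpf, 0 in both libraries at 24 hpf and 14.8 and 11.5 CPM at 72 hpf. TCF21 overlapped between 24 and 48 hpf, at 22.4 and 8.63 CPM and at 19.6 and 38.0 CPM, and was at 4.44 and 4.11 CPM at 72 hpf. In the same marker list col1a1a, COL1A2 and POSTN (ENSDARG00000043806) were highest at 72 hpf, and the other POSTN overlapped between stages. The part of these markers in the SFRP5 values was not tested. SFRP2 was at 6.70 and 12.9 CPM, 7.70 and 10.4 CPM, and 23.6 and 38.5 CPM at the 3 stages. Its 72 hpf libraries were above the earlier ones, with a log2 fold change of 1.64 ± 0.60 from 24 to 72 hpf (edgeR adjusted p = 0.0778), and GFP-negative cells held 7.77, 25.0 and 78.5 CPM.

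WNT11 was at 60.8 and 31.6 CPM at 24 hpf, 37.2 and 23.9 CPM at 48 hpf and 16.4 and 17.3 CPM at 72 hpf in GFP-positive cells. GFP-negative cells were at 28.2, 33.5 and 92.3 CPM, so the GFP-positive libraries were both above at 24 hpf and both below at 72 hpf. The log2 fold change in GFP-positive cells from 24 to 72 hpf was -1.48 ± 0.55 (edgeR adjusted p = 0.0837). The change of the fraction difference over that time was -3.09 ± 0.88 (edgeR adjusted p = 0.0930), from a fit in which each GFP-negative group is 1 library taken to vary as much as the other groups do. WNT5B was at 33.2 and 56.1 CPM, 18.6 and 34.2 CPM, and 10.1 and 28.8 CPM at the 3 stages, with a log2 fold change of -1.22 ± 0.57 from 24 to 72 hpf (edgeR adjusted p = 0.171). In that fit 0 of 47 tested members passed for 48 against 24 hpf or for 72 against 24 hpf, where 2.11% and 1.53% of all genes did, and 3 and 4 members had an unadjusted p under 0.05. That fit was chosen after seeing the data, and without the filter on low counts it called 2 members for 72 against 24 hpf, WNT11 and WNT7A (ENSDARG00000044827).

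FZD9 (ENSDARG00000035185) was at 0 in both 24 hpf GFP-positive libraries, where 3 counts are 0.214 and 0.157 CPM, at 4.13 and 10.3 CPM at 48 hpf and at 4.03 and 3.76 CPM at 72 hpf. Against 3 counts over the 24 hpf group it was at least 84.0-fold higher at 48 hpf and at least 42.8-fold higher at 72 hpf, but it was not called by edgeR (adjusted p = 0.0677 and 0.0757). It is named after its values were seen, because DESeq2 and limma called it at both stages. FZD2 was at 61.7 and 64.8 CPM, 56.6 and 52.2 CPM, and 47.6 and 62.0 CPM at the 3 stages, and no comparison of stages called it.

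**Figure D4:**
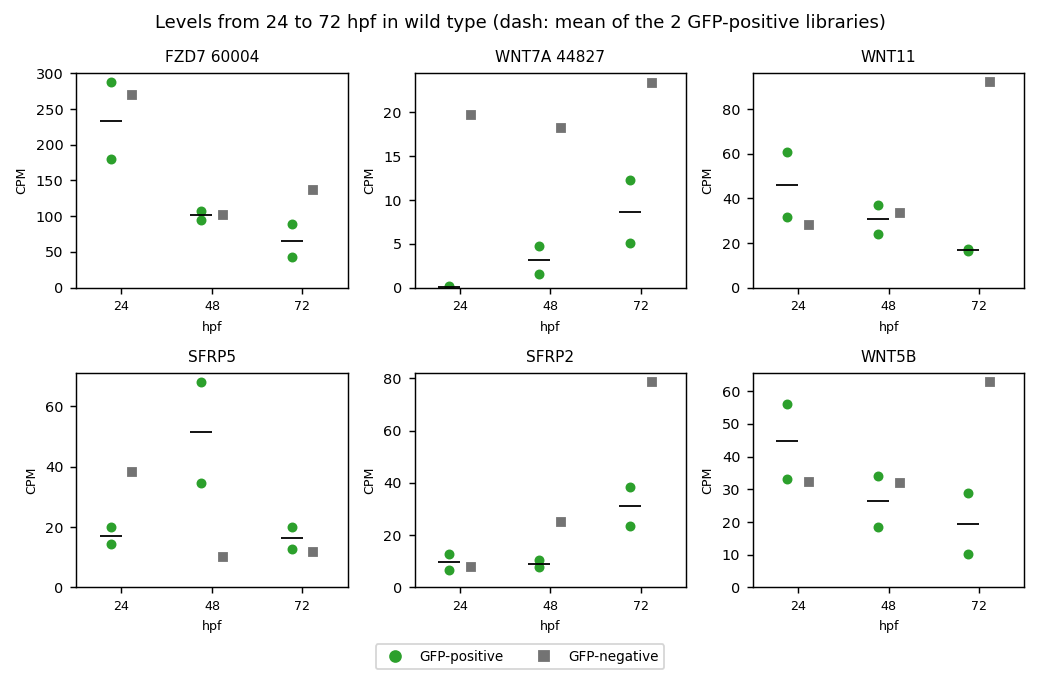
CPM (axes start at 0) of 6 genes in wild type at 24, 48 and 72 hpf, with green circles for GFP-positive libraries, a dash for their mean and a grey square for the GFP-negative library. FZD7 ENSDARG00000060004 goes from 288 and 180 CPM to 42.3 and 88.8 CPM in the circles, and WNT11 circles lie above the square at 24 hpf and below it at 72 hpf.

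The call of FZD7 (ENSDARG00000060004) from 24 to 72 hpf was kept in all 12 fits that left out a library. Only the wild-type libraries of 24 and 72 hpf enter that contrast directly. In a fit on only the 4 libraries compared the call was lost. The other stage calls were lost there too, and also in some of the fits that left out a library. The FZD7 call of 48 against 24 hpf was lost without either wild-type 48 hpf library and without 24 hpf replicate 1. Over all alternative fits its log2 fold change there was -1.54 to -0.859. The WNT7A call of 72 against 24 hpf was lost without 24 hpf replicate 2, and its log2 fold change was 2.98 to 10.4 over all alternative fits.

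Over the 4 lists of other Wnt pathway genes together, 7 of 78 tested genes were higher and 3 lower from 24 to 48 hpf, or 8.97% and 3.85%, near the 9.06% and 4.29% of all genes. From 24 to 48 hpf LEF1 rose by 3.02 ± 0.41, APC2 by 4.06 ± 0.79 and TCF7L2 by 1.93 ± 0.41 on the log2 scale in GFP-positive cells (edgeR adjusted p = 0.000187, 0.00328 and 0.00464), the 3 calls among 30 beta-catenin pathway genes. Among 11 target genes AXIN2, a feedback inhibitor, was called higher besides LEF1, at 1.21 ± 0.33, and the cell cycle gene CCND1 and the feedback inhibitor NKD1 were lower, at -3.24 ± 0.31 and -1.57 ± 0.42 (edgeR adjusted p = 0.0232, 8.26e-06 and 0.0211). Mean CCND1 levels were 825 CPM at 24 hpf and 89.5 CPM at 48 hpf. Of 23 reception and release genes GPC4, a cell-surface proteoglycan, was higher at 1.23 ± 0.33 and LGR4, an R-spondin receptor, lower at -2.30 ± 0.61 (edgeR adjusted p = 0.0212 and 0.0200). In the planar cell polarity list 2 of 17 were higher, CELSR3 at 3.43 ± 0.72 and DAAM1 (ENSDARG00000015059) at 2.40 ± 0.31 (edgeR adjusted p = 0.00452 and 0.000121).

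Between 24 and 72 hpf the counts were 3 higher and 0 lower of 23 in reception and release, 3 and 2 of 30 in the beta-catenin pathway, 1 and 2 of 11 among targets and 2 and 1 of 17 in planar cell polarity. Together 8 of 78 genes were higher and 5 lower, or 10.3% and 6.41%, near the 10.1% and 5.60% of all genes. CCND1 and NKD1 were again lower, at -2.88 ± 0.30 and -1.99 ± 0.43, and LEF1 higher at 2.27 ± 0.40 (edgeR adjusted p = 2.05e-05, 0.00503 and 0.00138). PRICKLE1 (ENSDARG00000040649), a planar cell polarity component, was lower at -2.55 ± 0.74 (edgeR adjusted p = 0.0297). From 48 to 72 hpf 0 genes of the 4 lists were called by edgeR. Erythrocyte and endothelial markers were high at 24 hpf in these GFP-positive libraries and xanthophore markers low, as given above, and their part in the stage values was not tested.

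The last comparisons set GFP-positive cells of the gata5, tbx5 and hand2 backgrounds against wild type at 72 hpf. All 3 use the same 2 wild-type libraries, so their values are not independent of each other. By edgeR 0 of 45 tested members were called in any of them, with 7, 2 and 4 at an unadjusted p under 0.05 for gata5, tbx5 and hand2, where 9.64%, 8.34% and 9.09% of all genes were. DESeq2 called 1, 2 and 2 members, or 2.13%, 4.26% and 4.26% of those it fitted, against 3.69%, 2.73% and 2.95% of all genes. By edgeR 0.105% of all 23767 genes were called for gata5 (0.0757% higher, 0.0295% lower), 0.0463% for tbx5 (0.0421% higher, 0.00421% lower) and 0.0505% for hand2 (0.0337% higher, 0.0168% lower). The members' median log2 fold changes were -0.41, -0.49 and -0.29, against 0, 0.02 and 0.08 for all genes. Both libraries of a background lay below both wild-type libraries for 10, 11 and 12 of the 45 members (22.2%, 24.4% and 26.7%), against 15.3%, 14% and 15.5% of all genes tested. They lay above for 5, 3 and 8 members (11.1%, 6.67% and 17.8%), against 17%, 21.2% and 27.6% of all genes.

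SFRP5 was at 12.7 and 20.1 CPM in wild type, 7.39 and 2.70 CPM in gata5, 1.81 and 4.18 CPM in tbx5 and 4.31 and 3.35 CPM in hand2. All 6 libraries of the 3 backgrounds lay below both wild-type libraries. The epicardial factors TBX18 and WT1 were ordered the same way, TBX18 at 29.8 and 29.2 CPM in wild type and 4.05 to 16.9 CPM in the backgrounds, and WT1 at 14.8 and 11.5 CPM and 1.1 to 10.8 CPM. So were summed neural markers, at 426 and 502 CPM in wild type and 153 to 315 CPM in the backgrounds. The epicardial factor TCF21 was not, at 4.44 and 4.11 CPM in wild type and 1.496 to 10.1 CPM in the backgrounds. In the same marker list both POSTN IDs were ordered like SFRP5, while col1a1a and COL1A2 overlapped wild type in gata5. The part of these markers in the genotype values was not tested. The SFRP5 log2 fold changes were -1.68 ± 0.66, -2.47 ± 0.67 and -2.10 ± 0.66 (edgeR adjusted p = 0.442, 0.324 and 0.326), and DESeq2 called SFRP5 in tbx5 and hand2. GFP-negative cells held 11.9 CPM in wild type and 11.8, 6.26 and 9.09 CPM in the 3 backgrounds. The test of the change in fraction difference gave -1.63 ± 1.19, -1.48 ± 1.19 and -1.66 ± 1.19 (edgeR adjusted p of 0.982 or more). In those tests 0 of 47 members were called, where 0.0304%, 0.0493% and 0.102% of all genes were, and 2, 0 and 0 members had an unadjusted p under 0.05.

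FZD10 was at 14.43 and 23.1 CPM in wild type, 5.98 and 14.396 CPM in gata5, 4.74 and 5.59 CPM in tbx5 and 4.35 and 5.72 CPM in hand2. The libraries of all 3 backgrounds were below both wild-type libraries. Log2 fold changes were -0.87 ± 0.67, -1.88 ± 0.68 and -1.91 ± 0.68 (edgeR adjusted p = 0.659, 0.493 and 0.418), and DESeq2 called it in tbx5 and hand2. FZD7 (ENSDARG00000060004) was at 42.3 and 88.8 CPM in wild type, 45.6 and 45.2 CPM in gata5, 45.9 and 32.5 CPM in tbx5 and 35.7 and 29.8 CPM in hand2. Only the hand2 libraries were both below wild type, with a log2 fold change of -1.01 ± 0.37 (edgeR adjusted p = 0.419).

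FZD5 was at 9.48 and 20.2 CPM in wild type, 2.11 and 5.498 CPM in gata5, 12.1 and 6.45 CPM in tbx5 and 5.73 and 3.55 CPM in hand2. In gata5 and hand2 both libraries were below wild type, at -1.96 ± 0.83 and -1.68 ± 0.82 (edgeR adjusted p = 0.483 and 0.566). FZD2 was at 47.6 and 62.0 CPM in wild type and at 33.9 and 32.2 CPM in gata5, at -0.72 ± 0.30 (edgeR adjusted p = 0.471). In tbx5 and hand2 it was at 48.0 and 56.8 CPM and at 66.2 and 74.1 CPM, so the hand2 libraries lay above wild type, at 0.35 ± 0.29 (edgeR adjusted p = 0.715). FZD4 was at 29.9 and 15.8 CPM in wild type and at 13.0 and 8.39 CPM in hand2, at -1.11 ± 0.50 (edgeR adjusted p = 0.530).

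WNT11 and WNT5B were not called either. WNT11 was at 16.4 and 17.3 CPM in wild type, 22.4 and 19.3 CPM in gata5, 11.8 and 12.2 CPM in tbx5 and 27.0 and 8.48 CPM in hand2, and its log2 fold changes were 0.32 ± 0.54, -0.51 ± 0.54 and 0.07 ± 0.54 (edgeR adjusted p = 0.933, 0.848 and 0.998). The gata5 libraries were above and the tbx5 libraries below both wild-type libraries, and the hand2 libraries lay on either side. WNT5B was at 10.1 and 28.8 CPM in wild type, 13.2 and 8.40 CPM in gata5, 11.4 and 13.8 CPM in tbx5 and 35.5 and 18.004 CPM in hand2. Its wild-type libraries span most of these values, and its log2 fold changes were -0.83 ± 0.57, -0.64 ± 0.57 and 0.45 ± 0.57 (edgeR adjusted p = 0.608, 0.774 and 0.845). SFRP2, an sFRP gene, was at 23.6 and 38.5 CPM in wild type, 14.3 and 32.4 CPM in gata5, 18.1 and 18.5 CPM in tbx5 and 17.6 and 8.78 CPM in hand2. Both tbx5 and both hand2 libraries were below wild type and gata5 overlapped it, with log2 fold changes of -0.41 ± 0.58, -0.78 ± 0.58 and -1.24 ± 0.59 (edgeR adjusted p = 0.901, 0.696 and 0.559).

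**Figure D5:**
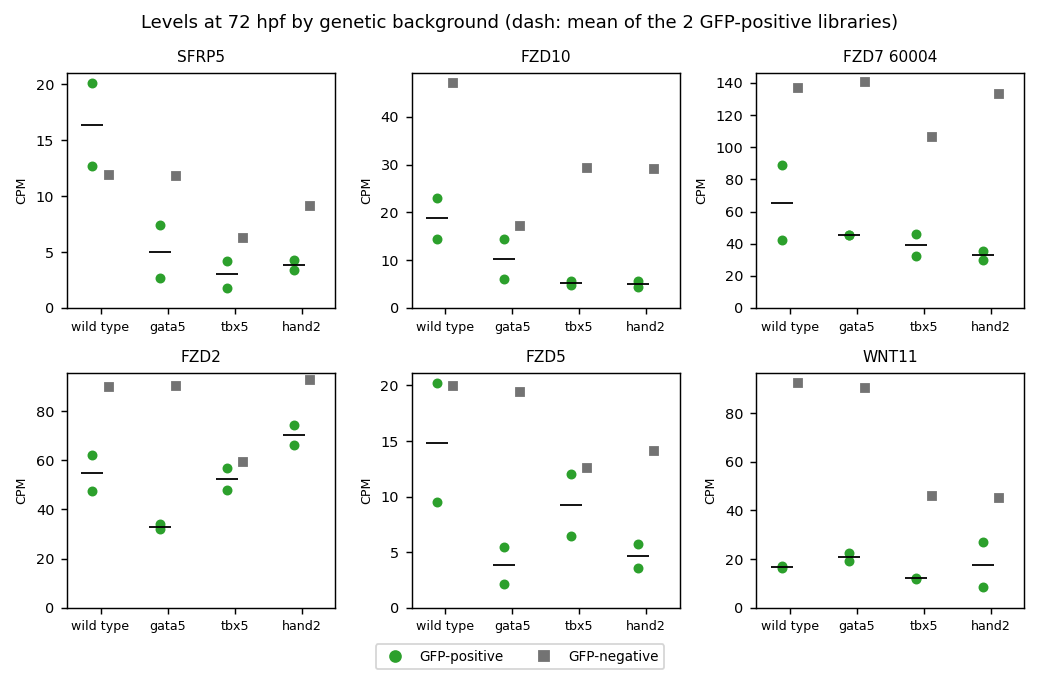
CPM (axes start at 0) of 6 genes at 72 hpf in wild type and in the gata5, tbx5 and hand2 backgrounds, with green circles for GFP-positive libraries, a dash for their mean and a grey square for the GFP-negative library. SFRP5 circles of all 3 backgrounds, 1.81 to 7.39 CPM, lie below both wild-type circles at 12.7 and 20.1 CPM, but no gene shown was called by edgeR.

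Several scarce members were at 0 in wild type and not in a background, or the reverse. DKK3 (ENSDARG00000103591) was at 0 in both wild-type GFP-positive libraries and at 0 and 3.40 CPM in gata5, 1.36 and 1.54 CPM in tbx5 and 0.460 and 1.63 CPM in hand2. Against 3 counts over the wild-type group it was at least 28.6-fold, 25.6-fold and 17.9-fold higher, and it was not called (edgeR adjusted p = 0.536, 0.612 and 0.589). The GFP-negative libraries held 0.927 CPM in wild type and 1.20, 10.4 and 10.7 CPM in the 3 backgrounds. SFRP1 (ENSDARG00000057678) was at 0 and 6.47 CPM in wild type and at 0 in both libraries of gata5 and of tbx5, and the other SFRP1 (ENSDARG00000035521) had log2 fold changes of -0.26 ± 0.97, -0.09 ± 0.97 and 0.01 ± 0.97. The wild-type replicates at 72 hpf differ more from each other than those of any other GFP-positive group, with a correlation of log2 levels across genes of 0.718 against 0.800 to 0.909.

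No gene of the 4 pathway lists was called between a background and wild type, out of 23, 30, 11 and 17 tested in each comparison. Cardiomyocyte markers summed to 967 and 426 CPM in wild type, 541 and 70.2 CPM in gata5, 284 and 194 CPM in tbx5 and 2425 and 750.0 CPM in hand2. Epidermis markers summed to 14378 CPM in gata5 GFP-positive replicate 1 and to 463 to 4558 CPM in the other 72 hpf GFP-positive libraries. Of the 14378 CPM, krt4 made up 13718 CPM, while krt5, TP63 and cldni were higher in wild type replicate 2. The part of the cardiomyocyte and epidermis markers in the genotype values was not tested. The gata5 GFP-positive replicate 2 had the lowest cardiomyocyte marker sum. Since 0 members were called with it included, a fit without it, which leaves gata5 with 1 library, could not show its part.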

How the data were processed

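RNA-seq of 18 libraries was analysed from gene counts that the authors deposited as whole numbers per gene ID. The deposited log2 values were made by the authors and used in an alternative only. Per the submitters' processing notes Trimmomatic 0.36, STAR 2.5, SAMtools 1.4, DESeq2 and the build GRCz10 were used; which tool counted, on which annotation and with what strand option, is not given in the sources used here, so paralogs and overlapping genes can share reads. Per the labels' protocols RNA was extracted with Trizol and columns, and low-input libraries were made with a SMARTer kit.

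The test across genes was that of edgeR 4.0.16 under R 4.3.3 (TMM, minimum count 10, minimum total count 15, quasi-likelihood F test), with Benjamini-Hochberg adjustment over all genes and calls at 0.05. The GFP comparison used condition and fraction over 18 libraries, and stages and backgrounds the 12 GFP-positive libraries as 6 groups. Alternatives used DESeq2 1.42.0, limma 3.58.1, other filters and left-out libraries. Scripts were tested on simulated data with a smaller spread between libraries than these data have. Changes were placed only in genes above a minimum mean count, so that test does not cover the scarcest members. Intervals and floors (3 counts) cover counting error only. Named were all called members, a fixed list, and the 3 highest by mean CPM in each role. The members, the gene lists and this rule were chosen with earlier results of these data known. Same-numbered libraries of different GFP-positive groups did not deviate together, so replicates were not paired. Between the fractions this could not be checked, because each GFP-negative group is 1 library.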

Additional observations from a re-analysis of the deposited data

How the results depend on the processing

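For 48 against 24 hpf, where edgeR called 1 member, DESeq2 called 4, no filter on low counts 3 and limma on the deposited log2 values 3, or 8.51%, 6.38% and 6.67% of members fitted against 19.1%, 15.5% and 16.5% of all genes. For 72 against 24 hpf, where it called 2, they called 7, 3 and 6, or 14.9%, 6.38% and 13.3% against 23.9%, 18% and 21.1%, and a fit on only the 4 libraries compared called 0. DESeq2 called 1 for 72 against 48 hpf (SFRP2), 1 for gata5, 2 for tbx5 and 2 for hand2, against 0 each by edgeR. Without the filter 1 was called for tbx5, or 2.13% against 1.49% of all genes, where edgeR with the filter called 0. Wild-type libraries alone called 3 in place of 18 between fractions, or 6.67% against 3.17% of all genes. For the fraction difference of 72 against 24 hpf, no filter gave 2 in place of 0, or 4.17% against 2.41%. Leaving out 1 library, where shares of all genes are not given here, gave 15 to 19 calls between fractions. It gave 0 to 3 for 48 against 24 hpf, 1 to 4 for 72 against 24 hpf and 0 to 0 for the others. The cause of these differences was not tested. With only the 4 libraries of 48 against 24 hpf the 1 call was a different member, FZD9 (ENSDARG00000035185).

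Of 522 values of called members under the alternative fits, 461 kept the call, 61 lost it and 0 reversed. Each fit gives values for many members and many fits share most of their libraries, so these values are not independent. Same-numbered libraries of the GFP-positive groups did not deviate together (r of deviations -0.0588 to 0.0512 over 15 pairs of groups). Each GFP-negative group is 1 library, so pairing between the fractions could not be checked this way. A replicate block gave 12 calls between fractions, or 27.3% of members against 20.8% of all genes. It gave 1 and 2 for 48 and 72 against 24 hpf, or 2.22% and 4.44% against 12.5% and 14.3%. For 72 against 48 hpf and for each background it gave 0, where 0.0337% to 0.387% of all genes were called. Depth limits scarce members, since 3 counts were 0.0933 to 0.397 CPM by library.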
